A study of Mus musculus with 6 samples.

Results

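Mitosis and spindle genes, the transcripts of the machinery that condenses, aligns and separates chromosomes and then splits the cell, were followed through RNA-seq libraries of stimulated mouse CD8 T cells. The 44 members were taken by gene symbol and cover mitotic cyclins and kinases, the spindle checkpoint, kinetochores, kinesins, cytokinesis and condensin. All 44 had a row in the count table of 49492 rows, and all 44 were among the 15186 genes with enough counts to be tested. The 3 KO libraries came from NIK-CD4Cre-OT-I mice and the 3 WT libraries from Wild Type-OT-I mice, all C57/BL6 and 6 to 8 weeks old. NIK, encoded by Map3k14, is the kinase that starts noncanonical NF-kB signalling, and Cd4-Cre is active from the thymocyte stage that carries both CD4 and CD8, so it reaches cells that become CD8 T cells. The labels do not say whether the WT mice carried Cre. All 6 libraries share the OT-I transgenic T cell receptor, which sees an ovalbumin peptide. In all of them, splenic CD8 T cells labelled naive were kept for 24 hours on plate-bound anti-CD3 (1 µg/ml) with soluble anti-CD28 (1 µg/ml), so every value is of stimulated cells.

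Resting T cells do not divide, and stimulation through the receptor and CD28 drives them into the cell cycle. Mitotic genes are transcribed late in the cycle: their promoters are held silent by the DREAM complex in resting cells and early in the cycle, and are later activated by the MuvB core together with B-MYB and FOXM1. Because cells enter the cycle at their own pace, the abundance of these transcripts in a bulk library follows how many cells are in G2 and M phase as well as how much of each transcript a cell holds. In bulk RNA, fewer cells in those phases and less RNA per cell cannot be told apart.

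Total counts ran from 41311346 to 47851445 per library, at which a count of 3 is 0.0627 to 0.0722 CPM (counts scaled to a common library total with TMM factors). Map3k14 itself was detected at 50.7, 64.5 and 54.7 CPM in KO replicates 4, 5 and 6, against 53.6, 65.5 and 65.3 CPM in WT replicates 1, 2 and 3. The groups overlapped (log2 fold -0.12, SE 0.11, edgeR adjusted p = 0.81), so this count over the whole gene did not set the labels apart, and directions here are between libraries as labelled. The 10 markers of CD8 T cells summed to 2821 to 3094 CPM in KO libraries and 2707 to 2980 CPM in WT libraries, and Cd4 was at most 0.92 CPM. Xist, expressed from an inactive X chromosome, gave 82938 to 92901 counts in KO replicate 6 and WT replicates 1 and 3 (Xist-high). It gave 22 to 38 counts in the other libraries (Xist-low). Y-linked genes together gave 3 to 10 counts in Xist-high libraries and 9956 to 11368 in Xist-low libraries. Each genotype thus held libraries of both kinds. Across all genes edgeR's quasi-likelihood test called 1 of 15186 at an adjusted p under 0.05, which is 0.00659%, and that gene, Ms4a4c, is no mitosis gene. The labels do not tie libraries to single mice, and the p-values measure library spread, which may be technical in part.

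The members moved together from library to library, and the widest gap lay between libraries of one genotype, WT replicates 1 and 2. The mean log2 deviation of the 44 genes from their own 6-library means was 0.22, -0.00029 and 0.13 in KO replicates 4, 5 and 6, against 0.27, -0.36 and -0.26 in WT replicates 1, 2 and 3. WT replicate 1 was thus the highest library and WT replicates 2 and 3 the lowest, with the 3 KO libraries between them. WT replicate 1 was the highest library for 27 of the 44 genes, KO replicate 4 for 14, KO replicate 5 for 2 and KO replicate 6 for 1. WT replicate 2 was the lowest for 38 genes, WT replicate 3 for 5 and KO replicate 4 for 1 (Pttg1). Over all tested genes, WT replicate 1 was highest for 16.0% and WT replicate 2 lowest for 19.8%. Summed over the members, 0.415%, 0.362% and 0.391% of normalised counts fell on them in KO replicates 4, 5 and 6, against 0.415%, 0.279% and 0.291% in WT replicates 1, 2 and 3.

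**Figure D1:**
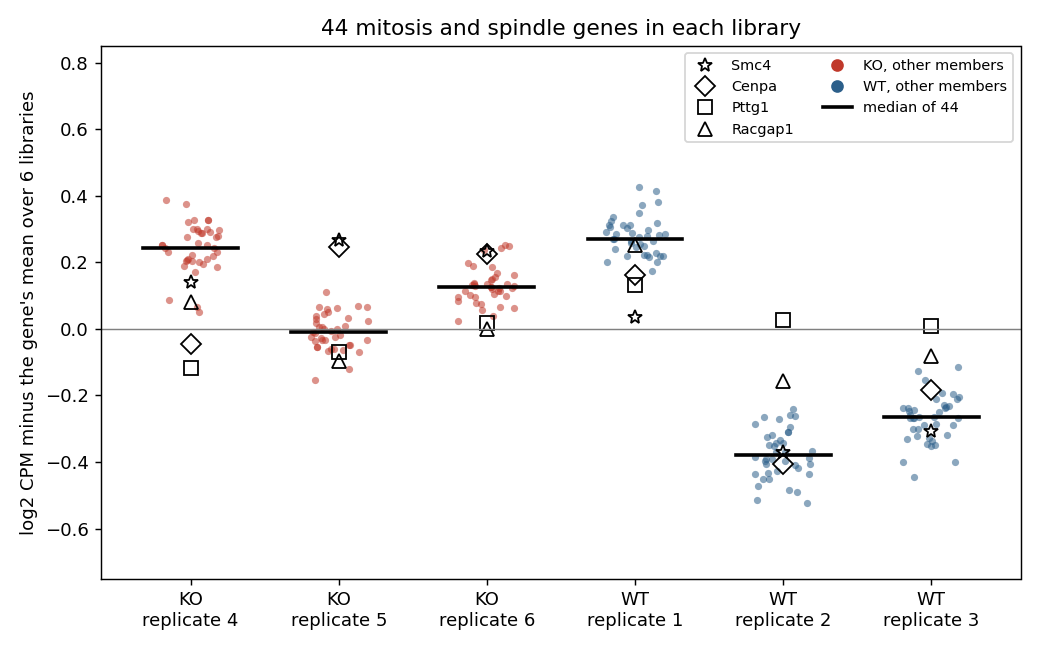
Each point is 1 of the 44 genes, placed by its log2 CPM minus that gene's mean over the 6 libraries (vertical axis, log2 units) in each library (horizontal axis); black bars are medians over the 44 genes. Most genes sit together at each library's level, high in WT replicate 1 and KO replicate 4 and low in WT replicates 2 and 3, while Smc4, Cenpa, Pttg1 and Racgap1 (open symbols) leave the cloud in some libraries.

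The step between WT replicate 1 and the other WT libraries had the same direction in all members and varied in size. WT replicate 1 lay above both other WT libraries in all 44 genes, against 39.0% of all tested genes. It exceeded their mean by a median of 0.59 log2 units, or 1.505-fold, with a range over the 44 genes from 0.11 for Pttg1 to 0.79 for Ube2c. Within the WT group the range between libraries had a median of 0.63 log2 units per gene, and within the KO group a median of 0.26. For 43 of 44 genes, all but Smc4, the range among WT libraries was larger than the estimated difference between the genotypes. Once each library's mean deviation was taken off, the SD of a gene over the 6 libraries had a median of 0.063 log2 units, against 0.28 before. It was under 0.1 for 35 of the 44 genes, and highest for Pttg1 (0.27), Cenpa (0.18), Smc4 (0.17) and Racgap1 (0.16).

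Against this spread, no member was called as different between KO and WT libraries. EdgeR called 0 of the 44 genes, with a background of 0.00659% of all tested genes. One member, the condensin gene Smc4, had an unadjusted p under 0.05 and was higher in KO, against 7.26% of all tested genes (3.82% higher and 3.44% lower). DESeq2 called 1 member, also Smc4, where it called 0.66% of the genes it gave an adjusted p, and limma-voom called 0 with 1 at an unadjusted p under 0.05. Estimates were nevertheless mostly of one sign: 42 of 44 were positive, where 52.4% of all tested genes were, and the median log2 fold was 0.22 (1.17-fold), against 0.01 over all tested genes. As the members share the library steps, these 42 signs are not 42 independent observations. The 95% interval of the fold covered no change for 43 of 44 genes, and the intervals together ran from 0.735-fold to 1.75-fold. A 1.5-fold increase lay inside the interval of 28 genes.

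The size of the estimate turned on which WT libraries were used. In 42 of 44 genes every KO library lay above WT replicates 2 and 3, against 17.9% of all tested genes. The members' own values had set those 2 libraries apart as their lowest, so this count is no independent support for a difference. Every KO library lay above all 3 WT libraries for 1 gene, against 6.68% of all tested genes. No member had every KO library below every WT library, against 6.07%. Without WT replicate 1 the median log2 fold was 0.47 and edgeR called 6 members, all higher in KO, at a background of 0.764% called over all genes in that fit (0.334% called higher). These were Cenpf, Cenpe, Aspm, Nusap1, Mki67 and Smc4, with adjusted p from 0.031 to 0.046. At an unadjusted p under 0.05 the same fit had 42 of 44 members, all higher in KO, against 14.9% of all tested genes (7.58% higher). As WT replicate 1 was the members' highest library, leaving it out favours higher estimates in KO, and the 42 are not independent observations. Without WT replicate 2 the median log2 fold was 0.11, and without WT replicate 3 it was 0.14. Among Xist-high libraries alone, KO replicate 6 minus the mean of WT replicates 1 and 3 had a median of 0.12 log2 units and was positive for 40 of 44 genes. KO replicate 6 was above WT replicate 3 in all 44 genes and below WT replicate 1 in 41. Among Xist-low libraries, the mean of KO replicates 4 and 5 minus WT replicate 2 had a median of 0.49, positive for 43 of 44.

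**Figure D2:**
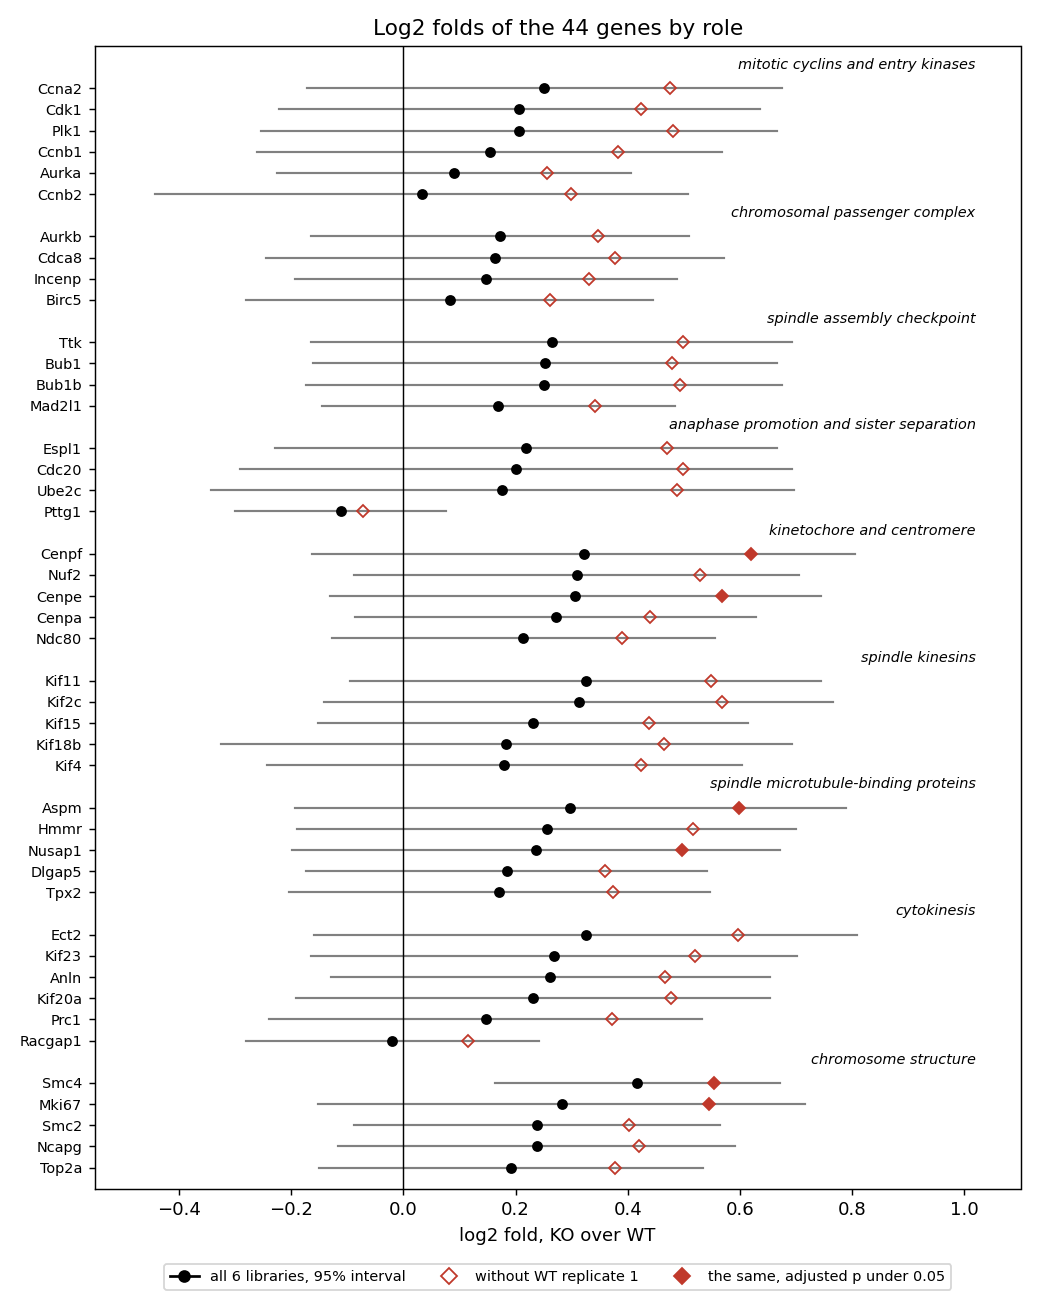
Log2 fold of each gene, KO over WT (horizontal axis), with genes grouped by role down the page: black points with grey 95% intervals are from all 6 libraries, red diamonds from the fit without WT replicate 1, filled where its adjusted p was under 0.05. With all libraries 43 of 44 intervals cross 0, and leaving out WT replicate 1 moves every estimate to the right.

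Markers of other spleen cells also differed between libraries. B cell markers summed to 30.0 to 42.1 CPM in KO libraries and 25.1 to 76.4 CPM in WT libraries, lowest in WT replicate 1 (25.1 CPM) and highest in WT replicate 2 (76.4 CPM), with 0 of 8 estimates higher in KO and none at 0 counts. CD4 T cell markers summed to 11.2 to 16.9 CPM in KO libraries and 13.4 to 27.3 CPM in WT libraries, with 1 of 4 higher in KO, and WT replicates 2 and 3 stood highest at 23.5 and 27.3 CPM. Macrophage and monocyte markers summed to 8.52 to 16.5 CPM in KO libraries and 5.94 to 9.79 CPM in WT libraries, with all 5 tested members higher in KO. Plasma cell markers summed to 123 to 139 CPM in KO libraries and 148 to 156 CPM in WT libraries, and stroma and endothelium markers to 103 to 132 CPM in KO libraries and 88.2 to 93.5 CPM in WT libraries, with no overlap between the genotypes. Nearly all of these sums came from 1 gene each. Xbp1 stood between 120.1 and 137 CPM in KO libraries and between 146 and 153 CPM in WT libraries, while Jchain was at most 2.09 CPM and Tnfrsf17 was at 0 in all 6 libraries. Pecam1 stood between 102 and 130.3 CPM in KO libraries and between 86.5 and 92.5 CPM in WT libraries, while Cdh5 was at most 0.50 CPM. Neutrophil markers did not overlap either but summed to under 1 CPM (0.682 to 0.963 CPM in KO libraries and 0.245 to 0.613 CPM in WT libraries), and dendritic and NK cell sums overlapped. Of all tested genes, 6.68% had every KO library above every WT library, and 6.07% had every KO library below. EdgeR called 0 genes of these 8 lists. At an unadjusted p under 0.05 there was 1 each in the macrophage, plasma cell and stroma lists, against 7.26% of all tested genes. The part of these cells in the mitotic values was not tested.

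Because the genes moved together, their RefSeq promoters were read for the letters through which mitotic genes are known to be controlled: the cell cycle genes homology region (CHR), searched as TTTGAA and in its variant form TTCGAA, bound by MuvB complexes, and the CCAAT box, bound by NF-Y. Both strands were searched from 250 bases before to 50 bases after the start, and in 1 member a CHR match overlapped a CCAAT match. Of the 44 members 37 matched a promoter sequence (build GRCm38.p6), and Aurkb, Ccna2, Dlgap5, Incenp, Kif20a, Smc4 and Tpx2 did not. CHR letters lay within 50 bases of the start in 28 of 37, or 75.7%, against 4.41% of 9867 tested genes with a promoter and 6.12% of all 27025 genes. CCAAT stood anywhere in the window in 28 of 37, or 75.7%, against 42.7% of tested genes, and at least 2 times in 18 of 37, or 48.6%, against 16.7%. Both motifs were present in 26 of 37, against 6.94% of tested genes. A match is a run of letters and not a measured binding site. The 150 bases before the start hold CHR letters in 13 members. Taking only CHR letters in this stretch, 9 of these members have a CCAAT upstream of the match nearest the start. In 2 (Ect2 and Smc2) the CCAAT lies downstream of it, and 2 (Kif15 and Kif2c) have none in the window. Ect2 and Smc2 also hold CHR letters after the start, with a CCAAT upstream of those. These 150 bases are shown 5′ to 3′ for 5 examples of the first layout (Cdk1, Cdc20, Ube2c, Top2a and Kif11), for Kif15 and Smc2 as examples of the others, and for Racgap1 and Pttg1, which with Smc4 and Cenpa followed the other members least closely. The examples were chosen after the matches were seen. Capitals mark the letters of both motifs on either strand (on the opposite strand CCAAT reads ATTGG).
Cdk1, chr10:69352913-69353062, minus strand: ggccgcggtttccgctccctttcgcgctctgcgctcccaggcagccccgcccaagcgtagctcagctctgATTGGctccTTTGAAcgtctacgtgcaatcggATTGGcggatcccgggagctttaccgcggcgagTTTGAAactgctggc
Cdc20, chr4:118437344-118437493, minus strand: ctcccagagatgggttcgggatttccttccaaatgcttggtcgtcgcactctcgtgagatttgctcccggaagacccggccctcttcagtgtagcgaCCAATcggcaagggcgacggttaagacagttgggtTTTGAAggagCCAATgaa
Ube2c, chr2:164769779-164769928, plus strand: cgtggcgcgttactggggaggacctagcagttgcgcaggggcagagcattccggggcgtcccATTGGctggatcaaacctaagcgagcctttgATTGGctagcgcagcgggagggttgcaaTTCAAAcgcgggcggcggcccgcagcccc
Top2a, chr11:99024190-99024339, minus strand: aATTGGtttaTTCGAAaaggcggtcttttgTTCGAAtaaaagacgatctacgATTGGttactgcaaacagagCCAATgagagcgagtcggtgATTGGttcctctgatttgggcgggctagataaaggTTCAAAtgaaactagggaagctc
Kif11, chr19:37376232-37376381, plus strand: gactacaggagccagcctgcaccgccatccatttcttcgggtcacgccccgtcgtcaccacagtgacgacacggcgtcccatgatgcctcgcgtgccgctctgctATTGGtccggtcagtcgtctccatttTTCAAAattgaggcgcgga
Kif15, chr9:122950931-122951080, plus strand: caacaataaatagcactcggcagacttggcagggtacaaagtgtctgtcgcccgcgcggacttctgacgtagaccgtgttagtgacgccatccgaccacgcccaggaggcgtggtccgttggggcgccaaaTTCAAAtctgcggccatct
Smc2, chr4:52439071-52439220, plus strand: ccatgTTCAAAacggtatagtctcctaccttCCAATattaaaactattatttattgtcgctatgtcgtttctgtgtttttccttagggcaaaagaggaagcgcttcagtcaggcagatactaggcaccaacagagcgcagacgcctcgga
Racgap1, chr15:99651657-99651806, minus strand: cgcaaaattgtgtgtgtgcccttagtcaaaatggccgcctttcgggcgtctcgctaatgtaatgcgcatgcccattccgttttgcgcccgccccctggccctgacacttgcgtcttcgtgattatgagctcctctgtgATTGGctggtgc
Pttg1, chr11:43425982-43426131, minus strand: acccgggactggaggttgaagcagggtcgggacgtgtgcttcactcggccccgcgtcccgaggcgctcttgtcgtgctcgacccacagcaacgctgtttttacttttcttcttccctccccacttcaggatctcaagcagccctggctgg
In the first 5 the CHR letters nearest the start begin 15, 18, 29, 23 and 19 bases before it, in the order shown. In Kif15 they begin 19 bases before the start with no CCAAT. Smc2 has CHR letters 145 bases before the start, with the CCAAT at 119, closer to the start. It also has a match that begins 27 bases after the start, outside the stretch, and the CCAAT lies upstream of that one. Racgap1 holds 1 CCAAT in this stretch, and its CHR letters begin 6 bases after the start, outside the stretch. Pttg1 holds neither motif in the whole window. Its RefSeq start lies 270 bases inside the gene as GENCODE M21 draws it, so its window does not reach the outermost annotated start. The same holds for Cdca8, Kif2c and Kif4, 4 of the 37 in all.

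CHR letters near the start were found in other mitosis genes too, and in few S phase genes. They were present in 30 of 60 promoters of other mitosis genes, in 3 of 11 of other condensin and cohesin genes, in 4 of 17 of regulators of G2/M transcription, in 1 of 24 of S phase genes, in 0 of 9 of brakes on mitotic entry and in 0 of 15 of APC/C genes. The 407 other tested genes with CHR letters within 50 bases of the start had a median log2 fold of 0.03, KO over WT, with 0 called by edgeR. In them WT replicate 1 exceeded the other WT libraries by a median of 0.03 log2 units, against 0.59 in the members. The 8253 tested genes with no CHR letters in the window had medians of 0.0057 for the log2 fold and 0.0068 for WT replicate 1. Whether CHR letters have a part in the members' library pattern was not tested.

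Members spanned a 44.1-fold range of level per length of exon. The highest were Smc4, a core ATPase of condensin, at 106 ± 4.72 CPM per kilobase in KO libraries and 79.1 ± 12.4 CPM per kilobase in WT libraries (SD, n = 3 each), and Top2a, the topoisomerase that untangles sister DNA, at 66.1 ± 5.69 CPM per kilobase in KO libraries and 57.9 ± 12.1 CPM per kilobase in WT libraries. Mki67, which encodes the proliferation marker Ki-67 that coats mitotic chromosomes, followed at 47.0 CPM per kilobase over all 6 libraries, and Smc2, the partner of Smc4 in condensin, at 34.6. Incenp, Ccna2 and Aurkb were the other members above 20 CPM per kilobase. At the low end, below 5 CPM per kilobase, stood 9 genes, among them the contractile ring protein gene Anln (2.09), the large kinetochore protein gene Cenpf (2.83), the spindle pole gene Aspm (2.90) and the checkpoint kinase gene Ttk (4.09). By this measure the chromosome structure genes held the 4 highest levels, while the fifth of the group, Ncapg, stood at 9.52 CPM per kilobase. Exon lengths are unions over annotated transcripts, so the order of genes depends in part on that annotation.

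**Figure D3:**
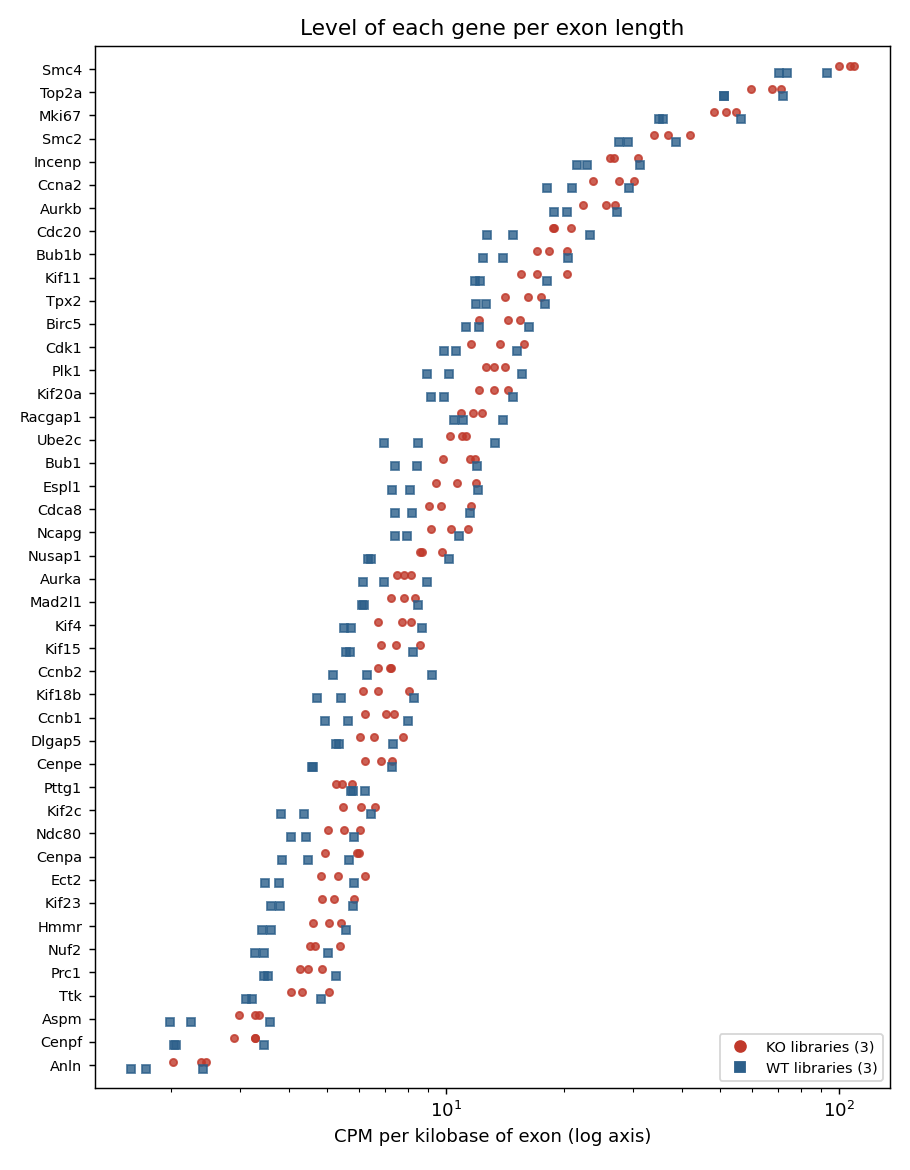
Level of each gene in CPM per kilobase of exon (horizontal log axis), with genes ordered by their mean over all 6 libraries down the page; circles are the 3 KO libraries and squares the 3 WT libraries. Smc4 and Top2a lead and Anln is lowest, and for most genes the highest WT square, WT replicate 1, lies among or beyond the KO circles while the other 2 squares lie below them.

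The cyclins and kinases that start mitosis had log2 folds from 0.03 to 0.25, none called (6 of 6 positive). Cdk1, the kinase that triggers mitotic entry, stood at 77.9, 57.2 and 67.8 CPM in KO replicates 4, 5 and 6, against 74.9, 48.7 and 52.3 CPM in WT replicates 1, 2 and 3. WT replicate 1 lay inside the KO range and the other 2 WT libraries below it (log2 fold 0.21, SE 0.18, edgeR adjusted p = 0.80). Ccnb1, the B-type cyclin that activates CDK1, was at 31.1, 26.3 and 29.6 CPM in KO replicates 4, 5 and 6, against 33.8, 20.8 and 23.7 CPM in WT replicates 1, 2 and 3. Here WT replicate 1 exceeded every KO library (log2 fold 0.15, SE 0.18, edgeR adjusted p = 0.85). Its relative Ccnb2 was at 11.0, 10.3 and 11.1 CPM in KO replicates 4, 5 and 6, against 14.1, 7.92 and 9.65 CPM in WT replicates 1, 2 and 3. The groups overlapped in the same way, and this was the smallest positive estimate of the 44 (log2 fold 0.03, SE 0.20, edgeR adjusted p = 0.98). It was negative without WT replicate 2 (log2 fold -0.14) and without WT replicate 3 (-0.03).

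Ccna2, cyclin A2, which acts in S phase and at mitotic entry, had the largest estimate of this role at 123, 96.5 and 112 CPM in KO replicates 4, 5 and 6, against 119.6, 74.0 and 85.4 CPM in WT replicates 1, 2 and 3. KO replicate 4 and WT replicate 1 were the highest pair (log2 fold 0.25, edgeR adjusted p = 0.76). The polo kinase gene Plk1, needed for spindle poles and mitotic exit, was at 31.1, 27.9 and 29.1 CPM in KO replicates 4, 5 and 6, against 34.3, 19.7 and 22.4 CPM in WT replicates 1, 2 and 3. Aurka, the Aurora kinase of the spindle poles, was at 19.8, 19.0 and 20.6 CPM in KO replicates 4, 5 and 6, against 22.7, 15.6 and 17.6 CPM in WT replicates 1, 2 and 3. For both, WT replicate 1 was highest and the other WT libraries lowest, and neither was called (log2 folds 0.21 and 0.09, edgeR adjusted p = 0.81 and 0.89). Without WT replicate 2 the Aurka estimate was -0.02.

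The chromosomal passenger complex corrects faulty attachments and later directs cytokinesis. Its kinase gene Aurkb was at 79.2, 65.7 and 75.5 CPM in KO replicates 4, 5 and 6, against 80.1, 55.5 and 60.1 CPM in WT replicates 1, 2 and 3. Birc5, survivin, which targets the complex to centromeres, was at 52.7, 41.3 and 49.0 CPM in KO replicates 4, 5 and 6, against 55.5, 38.3 and 41.2 CPM in WT replicates 1, 2 and 3. In both genes the KO libraries lay between WT replicate 1 and the other WT libraries, with KO replicate 5 level with WT replicate 3 for Birc5 (log2 folds 0.17 and 0.08, edgeR adjusted p = 0.79 and 0.91). Cdca8 (borealin) and the scaffold Incenp had log2 folds of 0.16 and 0.15. None of the 4 was called, and the role had the smallest median log2 fold of the 9, 0.16, against 0.34 without WT replicate 1.

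The spindle assembly checkpoint holds anaphase until every kinetochore is attached. Bub1, a checkpoint kinase of the kinetochore, was at 51.6, 42.8 and 50.1 CPM in KO replicates 4, 5 and 6, against 52.2, 32.3 and 36.9 CPM in WT replicates 1, 2 and 3. Mad2l1, whose protein MAD2 binds CDC20, was at 70.1, 60.9 and 65.7 CPM in KO replicates 4, 5 and 6, against 71.5, 51.4 and 52.1 CPM in WT replicates 1, 2 and 3. WT replicate 1 was the highest library and WT replicate 2 the lowest for both, so the groups overlapped (log2 folds 0.25 and 0.17, edgeR adjusted p = 0.75 and 0.78). Bub1b (BubR1) and Ttk (MPS1) had log2 folds of 0.25 and 0.26. With all libraries 0 of these 4 genes were called, and without WT replicate 1 their log2 folds ran from 0.34 to 0.50, also with 0 called.

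Anaphase begins when the APC/C ubiquitin ligase, with its activator CDC20 and the E2 enzyme UBE2C, destroys securin and frees separase. Cdc20 was at 38.9, 34.9 and 35.3 CPM in KO replicates 4, 5 and 6, against 43.4, 23.8 and 27.7 CPM in WT replicates 1, 2 and 3. Ube2c was at 29.3, 26.7 and 28.6 CPM in KO replicates 4, 5 and 6, against 34.7, 18.1 and 22.1 CPM in WT replicates 1, 2 and 3. Both had their highest value in WT replicate 1 and their lowest in WT replicate 2, a WT range of 0.86 and 0.93 log2 units, while the KO libraries differed by 0.16 and 0.13. Neither was called (log2 fold 0.20, SE 0.21, edgeR adjusted p = 0.82, and log2 fold 0.18 with edgeR adjusted p = 0.86 for Ube2c), and the Ube2c estimate was -0.01 without WT replicate 2. Espl1, separase itself, had log2 fold 0.22 (edgeR adjusted p = 0.79).

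Pttg1, which encodes securin (chromosome 11, 43420250 to 43426251, minus strand, GRCm38), did not share the library pattern. It stood at 10.5, 10.9 and 11.6 CPM in KO replicates 4, 5 and 6, against 12.5, 11.6 and 11.5 CPM in WT replicates 1, 2 and 3. All 6 values lay within a narrow band, with KO replicates 4 and 5 lowest and WT replicate 1 highest, and KO replicate 6 overlapping the WT range. Its means were 11.0 ± 0.528 CPM in KO libraries and 11.9 ± 0.557 CPM in WT libraries (SD, n = 3 each), and its estimate was the lowest of the 44 (log2 fold -0.11, SE 0.08, edgeR adjusted p = 0.76). Its fold had a 95% interval of 0.812 to 1.05. It was negative in all 13 alternative fits, from -0.15 to -0.07.

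Kinetochore and centromere genes had the highest median log2 fold of the 9 roles, 0.31, with 5 of 5 positive and 0 called. Cenpe, the kinesin that carries chromosomes to the spindle equator, was at 62.8, 53.6 and 59.2 CPM in KO replicates 4, 5 and 6, against 63.0, 39.6 and 39.4 CPM in WT replicates 1, 2 and 3. Ndc80, a core microtubule anchor of the kinetochore, was at 39.4, 32.5 and 35.8 CPM in KO replicates 4, 5 and 6, against 38.0, 26.2 and 28.6 CPM in WT replicates 1, 2 and 3. Both overlapped through WT replicate 1 (log2 fold 0.31, SE 0.19, edgeR adjusted p = 0.72, and log2 fold 0.21 with edgeR adjusted p = 0.75 for Ndc80). Cenpf and the NDC80 partner Nuf2 had log2 folds of 0.32 and 0.31. Without WT replicate 1, Cenpf (log2 fold 0.62, edgeR adjusted p = 0.032) and Cenpe (log2 fold 0.57, edgeR adjusted p = 0.037) were called higher in KO.

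Cenpa (chromosome 5, 30666777 to 30674830, plus strand, GRCm38), the histone H3 variant that marks centromeres, was picked out after its values were seen. It stood at 28.8, 35.3 and 34.7 CPM in KO replicates 4, 5 and 6, against 33.3, 22.4 and 26.2 CPM in WT replicates 1, 2 and 3. KO replicates 5 and 6 were highest and KO replicate 4, one of the highest libraries for the members as a whole, was the lowest KO library, below WT replicate 1. Relative to the mean deviation of the 44 genes, Cenpa deviated by -0.27 log2 units in KO replicate 4 and by 0.25 in KO replicate 5. The genotypes overlapped and the gene was not called (log2 fold 0.27, SE 0.15, edgeR adjusted p = 0.71).

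Spindle kinesins slide and organise microtubules. Kif11 (Eg5), which pushes spindle poles apart, was at 152, 116 and 127 CPM in KO replicates 4, 5 and 6, against 135, 88.6 and 91.4 CPM in WT replicates 1, 2 and 3. KO replicate 4 was highest, WT replicate 1 next and WT replicates 2 and 3 lowest (log2 fold 0.32, SE 0.18, edgeR adjusted p = 0.71). Kif18b, which shortens astral microtubules, was at 28.8, 22.0 and 24.0 CPM in KO replicates 4, 5 and 6, against 29.7, 16.8 and 19.3 CPM in WT replicates 1, 2 and 3. Its groups overlapped through WT replicate 1, the highest library (log2 fold 0.18, SE 0.22, edgeR adjusted p = 0.85). The remaining kinesin genes, Kif2c (MCAK), which takes microtubules apart, the chromokinesin Kif4 and Kif15, which backs up Kif11, had log2 folds of 0.31, 0.18 and 0.23, and 0 of these 5 genes were called with or without WT replicate 1.

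Among proteins that bind spindle microtubules, Tpx2, the activator of Aurora A, was at 81.6, 66.3 and 75.6 CPM in KO replicates 4, 5 and 6, against 83.5, 55.8 and 59.3 CPM in WT replicates 1, 2 and 3. Nusap1, which bundles microtubules near chromosomes, was at 35.4, 34.9 and 39.7 CPM in KO replicates 4, 5 and 6, against 41.4, 25.8 and 26.2 CPM in WT replicates 1, 2 and 3. WT replicate 1 was the highest library for both, so the groups overlapped (log2 folds 0.17 and 0.24, edgeR adjusted p = 0.80 and 0.78). Aspm, the hyaluronan receptor and spindle gene Hmmr, and Dlgap5 (HURP), which stabilises kinetochore fibres, had log2 folds of 0.30, 0.26 and 0.18. Without WT replicate 1 edgeR called Aspm (log2 fold 0.60, adjusted p = 0.040) and Nusap1 (log2 fold 0.50, adjusted p = 0.046).

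Cytokinesis genes build the central spindle and the contractile ring. Prc1, which cross-links central spindle microtubules, was at 39.7, 34.9 and 36.8 CPM in KO replicates 4, 5 and 6, against 43.2, 29.1 and 28.4 CPM in WT replicates 1, 2 and 3. Kif23 (MKLP1), the motor of the centralspindlin complex, was at 46.0, 38.3 and 41.0 CPM in KO replicates 4, 5 and 6, against 45.8, 28.4 and 29.9 CPM in WT replicates 1, 2 and 3. Ect2, the exchange factor that switches on RhoA at the cleavage site, was at 33.5, 26.0 and 28.7 CPM in KO replicates 4, 5 and 6, against 31.5, 18.6 and 20.2 CPM in WT replicates 1, 2 and 3. In each of them WT replicates 2 and 3 lay below every KO library and WT replicate 1 among or above them. EdgeR called none (log2 fold 0.15, edgeR adjusted p = 0.84 for Prc1, log2 fold 0.27, edgeR adjusted p = 0.75 for Kif23 and log2 fold 0.32, edgeR adjusted p = 0.74 for Ect2). Kif20a, a kinesin of the central spindle, and Anln had log2 folds of 0.23 and 0.26.

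Racgap1 (chromosome 15, 99620496 to 99651656, minus strand, GRCm38), whose protein is the partner of KIF23 in centralspindlin, was at 87.7, 77.6 and 82.8 CPM in KO replicates 4, 5 and 6, against 98.8, 74.4 and 78.4 CPM in WT replicates 1, 2 and 3. WT replicate 1 was highest, but the KO libraries lay close to WT replicates 2 and 3, and KO replicate 5 fell between those 2. The means were 82.7 ± 5.06 CPM in KO libraries and 83.8 ± 13.1 CPM in WT libraries (SD, n = 3 each), and its log2 fold was -0.02 (SE 0.11, edgeR adjusted p = 0.98). Its sign was not stable: the estimate was 0.12 without WT replicate 1, 0.02 without KO replicate 5 and 0.03 with a term for Xist. Racgap1 and Pttg1 were the 2 members for which some KO library did not exceed WT replicates 2 and 3.

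Genes of chromosome structure held the only member whose libraries separated by genotype. Top2a was at 640.5, 540.0 and 608 CPM in KO replicates 4, 5 and 6, against 648, 459 and 459.9 CPM in WT replicates 1, 2 and 3. Mki67 was at 552, 484 and 519 CPM in KO replicates 4, 5 and 6, against 568, 360.2 and 351 CPM in WT replicates 1, 2 and 3. Smc2 was at 229, 185 and 201 CPM in KO replicates 4, 5 and 6, against 211, 151 and 159 CPM in WT replicates 1, 2 and 3. All 3 had WT replicate 1 among the KO values or above them, and none was called (log2 fold 0.19, edgeR adjusted p = 0.77 for Top2a, log2 fold 0.28, edgeR adjusted p = 0.74 for Mki67 and log2 fold 0.24, edgeR adjusted p = 0.71 for Smc2). Ncapg, a non-SMC condensin subunit, had a log2 fold of 0.24.

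Smc4 (chromosome 3, 69004738 to 69034623, plus strand, GRCm38) was at 523, 571 and 558 CPM in KO replicates 4, 5 and 6, against 486, 367 and 384 CPM in WT replicates 1, 2 and 3. Every KO library exceeded every WT library, which held for 1 of 44 members against 6.68% of all tested genes. The means were 550.4 ± 24.6 CPM in KO libraries and 412 ± 64.5 CPM in WT libraries (SD, n = 3 each), a log2 fold of 0.42 (SE 0.11, 95% interval of the fold 1.12 to 1.59) with an unadjusted p of 0.00595. It was not called by edgeR (adjusted p = 0.60), and its adjusted p in DESeq2 was 0.044. Without WT replicate 1 edgeR called it (log2 fold 0.55, adjusted p = 0.031). Among the 6 libraries it peaked in KO replicate 5, the KO library with the lowest mean deviation over the 44 genes.

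SMC4 and SMC2 proteins pair one to one in condensin, so their transcripts were set side by side, a comparison chosen after the values were seen. The ratio of Smc4 to Smc2 counts was 2.29, 3.08 and 2.77 in KO replicates 4, 5 and 6, against 2.30, 2.43 and 2.41 in WT replicates 1, 2 and 3. KO replicates 5 and 6 stood above the WT libraries and KO replicate 4 just below them. The ratio averaged 2.71 ± 0.401 in KO libraries and 2.38 ± 0.0685 in WT libraries (SD, n = 3 each), and did not differ beyond the spread between libraries (exact two-sided permutation p = 0.4, where 0.1 is the smallest that 3 against 3 libraries can give). Ratios of Smc4 to Ncapg and to Top2a were also computed. They averaged 7.65 and 0.93 in KO libraries, against 6.72 and 0.795 in WT libraries (exact two-sided permutation p = 0.3 and 0.2). Other condensin genes had WT replicate 1 as the highest and WT replicate 2 as the lowest WT library, with steps of differing size. Ncapd2 was at 253, 232 and 230.3 CPM in KO replicates 4, 5 and 6, against 259, 191 and 199 CPM in WT replicates 1, 2 and 3 (log2 fold 0.14, edgeR adjusted p = 0.79). Ncaph was at 75.3, 60.3 and 64.8 CPM in KO replicates 4, 5 and 6, against 73.2, 44.2 and 49.2 CPM in WT replicates 1, 2 and 3 (log2 fold 0.27, edgeR adjusted p = 0.76). In both, WT replicate 1 lay within or above the KO values. Ncaph2 changed less, at 181, 174 and 177 CPM in KO replicates 4, 5 and 6, against 182, 163 and 169 CPM in WT replicates 1, 2 and 3 (log2 fold 0.05, edgeR adjusted p = 0.83).

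**Figure D4:**
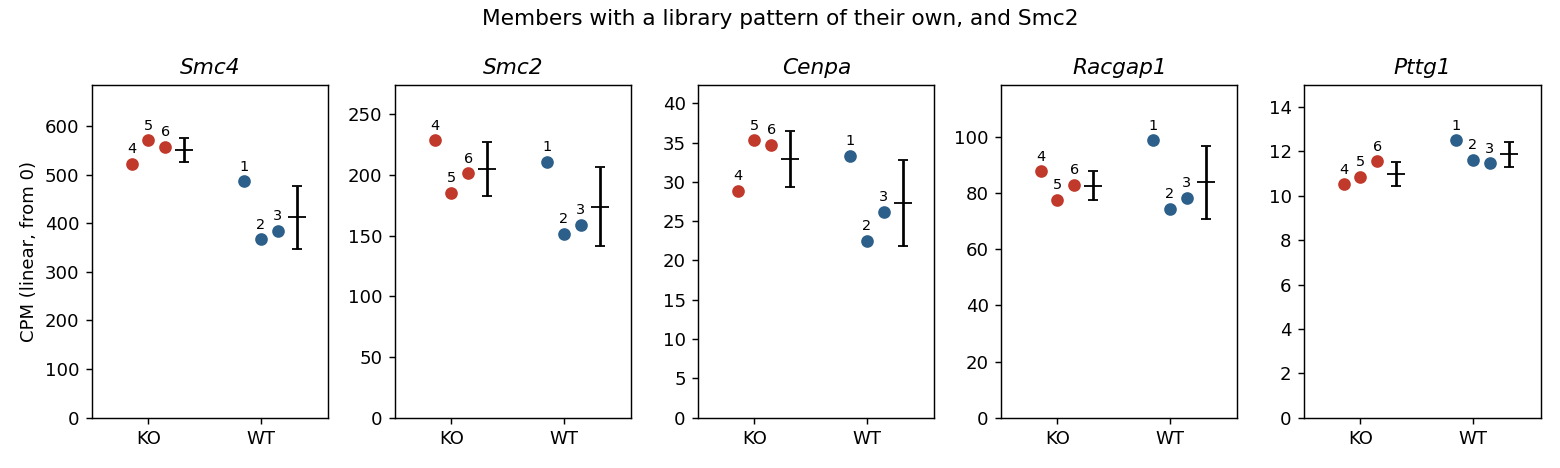
CPM (vertical axis, linear from 0, each panel with its own scale) of 4 members that left the common library pattern, with Smc2 for comparison; points are libraries numbered by replicate, KO left and WT right, with mean and SD bars. Smc4 is the gene whose KO points all lie above its WT points, Smc2 and Cenpa overlap through WT replicate 1, and Racgap1 and Pttg1 have KO points at or below WT points.

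Other mitosis genes, 74 of them tested, had mean deviations of 0.19, -0.01 and 0.06 in KO replicates 4, 5 and 6, against 0.20, -0.26 and -0.19 in WT replicates 1, 2 and 3. The order of the libraries was that of the 44 members, with a narrower range from highest to lowest. Estimates were positive for 69 of the 74 (median log2 fold 0.16), and edgeR and DESeq2 called 0. In edgeR 2 had an unadjusted p under 0.05, both higher in KO, against 3.82% of all tested genes higher at that threshold. The smallest p-values were for Shcbp1, a cytokinesis protein gene, for the microtubule polymerase gene Ckap5 and for the kinesin gene Kif20b. Shcbp1 was at 35.6, 29.4 and 32.8 CPM in KO replicates 4, 5 and 6, against 30.0, 23.8 and 25.7 CPM in WT replicates 1, 2 and 3 (log2 fold 0.30, edgeR adjusted p = 0.63). Ckap5 was at 169.9, 156 and 167 CPM in KO replicates 4, 5 and 6, against 159, 143 and 138 CPM in WT replicates 1, 2 and 3 (log2 fold 0.16, edgeR adjusted p = 0.68). Kif20b was at 65.3, 56.6 and 60.4 CPM in KO replicates 4, 5 and 6, against 61.6, 44.1 and 43.0 CPM in WT replicates 1, 2 and 3 (log2 fold 0.29, edgeR adjusted p = 0.70). All 3 overlapped through WT replicate 1. Without WT replicate 1 edgeR called 3 of the 74 as higher in KO, against 0.334% of all tested genes in that fit. These were Kif20b (adjusted p = 0.044) and, named after their values were seen, the kinetochore scaffold gene Knl1 (0.036) and the cyclin F gene Ccnf (0.043).

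Of 15 other condensin and cohesin genes all had positive estimates (median log2 fold 0.10, 0 called by edgeR or DESeq2). At an unadjusted p under 0.05, 1 was higher in KO, against 3.82% of all tested genes. Nipbl, the cohesin loader gene, was at 283, 307 and 289 CPM in KO replicates 4, 5 and 6, against 265, 257 and 261 CPM in WT replicates 1, 2 and 3. Its groups did not overlap, yet it was not called (log2 fold 0.17, edgeR adjusted p = 0.60). The cohesin release factor gene Wapl and the condensin II gene Ncapd3 had log2 folds of 0.09 and 0.16. Wapl, like Nipbl, had every KO library above every WT library, which held for 6.68% of all tested genes. The 16 APC/C genes, made up of ligase subunits, the activator gene Fzr1 and the E2 gene Ube2s, had mean deviations from -0.04 to 0.03 log2 units in the 6 libraries: 9 estimates were positive and 7 negative, with a median log2 fold of 0.0040, and edgeR and DESeq2 called 0 (0 at an unadjusted p under 0.05 in edgeR). Cdc27, Anapc11 and Anapc16 led with log2 folds of 0.12, -0.08 and -0.14. Anapc11 had every KO library below every WT library, which held for 6.07% of all tested genes.

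Among 23 regulators of G2/M transcription 19 had positive estimates (median log2 fold 0.11, 0 called by edgeR or DESeq2). At an unadjusted p under 0.05, 2 were higher in KO, against 3.82% of all tested genes. Foxm1, the forkhead activator of mitotic genes, was at 61.7, 51.6 and 53.5 CPM in KO replicates 4, 5 and 6, against 60.2, 40.9 and 43.9 CPM in WT replicates 1, 2 and 3. Mybl2 (B-MYB) was at 89.0, 66.3 and 71.0 CPM in KO replicates 4, 5 and 6, against 82.8, 55.8 and 63.0 CPM in WT replicates 1, 2 and 3. E2f1, which acts earlier in the cycle, was at 81.7, 60.3 and 72.8 CPM in KO replicates 4, 5 and 6, against 73.5, 62.7 and 63.1 CPM in WT replicates 1, 2 and 3. In all 3 the KO and WT ranges overlapped, and WT replicates 2 and 3 were low for Foxm1 and Mybl2 (log2 folds 0.20, 0.17 and 0.11, edgeR adjusted p = 0.77, 0.82 and 0.84). The smallest p-values were for the pocket protein genes Rbl1 (p107) and Rb1 and for the E2F partner gene Tfdp2. Rbl1 was at 108, 108 and 109 CPM in KO replicates 4, 5 and 6, against 102, 95.1 and 95.4 CPM in WT replicates 1, 2 and 3. Rb1 and Tfdp2 likewise had every KO library above every WT library, a separation seen in 6.68% of all tested genes. None of the 3 was called (log2 folds 0.15, 0.11 and 0.23, edgeR adjusted p = 0.61, 0.69 and 0.67).

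Brakes on mitotic entry had 7 positive and 4 negative estimates among 11 genes (median log2 fold 0.06, 0 called by edgeR or DESeq2). At an unadjusted p under 0.05, 2 were lower in KO, against 3.44% of all tested genes. Cdkn1a, the CDK inhibitor p21, was at 47.2, 59.3 and 55.5 CPM in KO replicates 4, 5 and 6, against 51.8, 96.0 and 84.6 CPM in WT replicates 1, 2 and 3. WT replicates 2 and 3, the libraries lowest in mitotic genes, were its highest, and WT replicate 1 lay among the KO values (log2 fold -0.52, SE 0.22, edgeR adjusted p = 0.68). Without WT replicate 1 Cdkn1a was called lower in KO (log2 fold -0.74, edgeR adjusted p = 0.043). That fit called 119 of 15584 genes, 67 of them lower in KO. As WT replicate 1 was the lowest WT library for Cdkn1a, leaving it out favours a lower estimate in KO. A link between Cdkn1a and the mitotic genes was not tested. Gadd45a, a stress gene whose protein restrains CDK1, was at 1.76, 2.23 and 2.26 CPM in KO replicates 4, 5 and 6, against 2.78, 3.72 and 3.73 CPM in WT replicates 1, 2 and 3. The KO values all lay below the WT values at this low level, as in 6.07% of all tested genes. Gadd45a was not called (log2 fold -0.71, SE 0.18, edgeR adjusted p = 0.60). Atm, the DNA damage kinase gene, had a log2 fold of 0.08.

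S phase genes, transcribed earlier in the cycle, were on average highest in KO replicate 4, and the 44 members in WT replicate 1. Their mean deviation was 0.26, -0.07 and 0.0025 in KO replicates 4, 5 and 6, against 0.18, -0.22 and -0.15 in WT replicates 1, 2 and 3. WT replicate 2 was lowest in both, and the difference between the 2 lists was not tested. A lead of KO replicate 4 was not particular to S phase genes. Among the members, KO replicate 4 also exceeded WT replicate 1 for spindle kinesins (0.31 against 0.28), chromosome structure (0.23 against 0.19) and, narrowly, the spindle checkpoint (0.259 against 0.256). The same held for other condensin and cohesin genes (0.14 against 0.09) and G2/M regulators (0.15 against 0.10). Of 30 S phase genes 29 had positive estimates (median log2 fold 0.12), and edgeR called 0 (0 at an unadjusted p under 0.05, 0 called by DESeq2). Ccne2, cyclin E2, was at 37.1, 31.1 and 34.8 CPM in KO replicates 4, 5 and 6, against 35.1, 23.6 and 26.3 CPM in WT replicates 1, 2 and 3 (log2 fold 0.28, edgeR adjusted p = 0.71). The thymidine kinase gene Tk1 and the polymerase alpha gene Pola1 had log2 folds of 0.26 and 0.18.

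**Figure D5:**
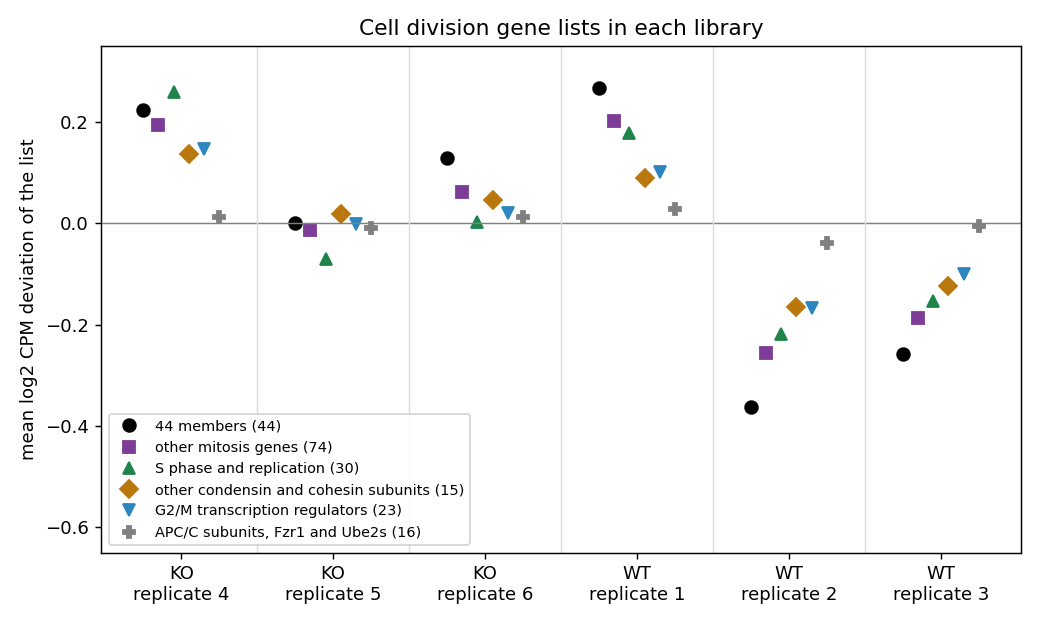
Mean log2 CPM deviation of each gene list from its genes' 6-library means (vertical axis, log2 units) in each library (horizontal axis), with the number of tested genes in brackets. The 44 members have the widest swing, from -0.36 in WT replicate 2 to 0.27 in WT replicate 1. Other mitosis, condensin and cohesin, regulator and S phase lists have a narrower full range, and the APC/C genes stay near 0. Among KO libraries the S phase list spreads more widely, from 0.26 in KO replicate 4 to -0.07 in KO replicate 5, than the members (0.22 to -0.00029).

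Counting could affect some values. Exons of 11 members overlap exons of another gene in GENCODE M21, on the opposite strand for 10 of them, and no strand setting is stated, so reads there cannot be told apart. The overlap was 29.3% of exon bases for Kif20a (with Cdc23), 22.8% for Ube2c (with Tnnc2), 15.1% for Kif4 (with Pdzd11), 13.4% for Ncapg (with Lcorl), 12.5% for Ccna2 (with Exosc9) and 11.1% for Prc1 (with Rccd1), and at most 7.09% for the other 5. Smc4, Pttg1, Racgap1 and Cenpa had none.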

How the data were processed

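Total RNA of 3 KO and 3 WT samples was isolated with Trizol and sequenced on Illumina libraries, per the labels' protocols. The deposited values are raw counts, 1 column per library and 1 line per gene symbol. HTSeq 0.9.1 and DESeq2 (no role given) and the build mm10 are named per the submitters' processing notes. Aligner, annotation and strand setting were not given in the sources used here. Libraries were grouped by title, 0 columns were left unused, and no pair was a duplicate (mean chi-square per gene 21.2 to 58.0).

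The difference KO over WT was tested in R 4.3.3 by edgeR 4.0.16 after filterByExpr and TMM (robust glmQLFit, then glmQLFTest), with Benjamini-Hochberg adjusted p under 0.05 over 15186 genes as a call. SE and 95% intervals come from the fold and F statistic. Deviations use log2 CPM with a prior count of 2. Exon lengths are unions over GENCODE M21 transcripts, and promoters come from RefSeq on GRCm38.p6, which shares its chromosomes with mm10. Alternatives were RLE and upper-quartile factors, 2 other low-count filters, DESeq2 1.42.0, limma-voom (limma 3.58.1), a term for Xist and each library left out, and values within each Xist class were added after seeing the data. The procedure was tested on simulated counts.

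Members and lists were chosen with earlier results of these data known. All 44 members are accounted for, and values per library are given for 25 set members and any other with one of the 3 largest or smallest folds. Of other lists, the 3 smallest p and Foxm1, Mybl2 and E2f1 are named.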

Additional observations from a re-analysis of the deposited data

How the results depend on the processing

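Of the 44 log2 folds, 39 kept their sign under all 13 alternatives, and 6 passed the threshold without WT replicate 1 and 1 with DESeq2. The median log2 fold of the 44 genes ran from 0.11 to 0.47 with 1 library left out, and was 0.31 with a term for Xist and 0.12 and 0.49 within Xist-high and Xist-low libraries. The number of members called was 0 in all but 2 alternatives, 1 with DESeq2 and 0 to 6 with 1 library left out. Over all genes 1 was called, against 10 without a low-count filter, 96 with DESeq2 and 1 to 119 with 1 library left out (119 without WT replicate 1, 2 without WT replicate 2). With 1 library left out, log2 folds ran from -0.0233 to 0.26 for Aurka, from -0.0215 to 0.26 for Birc5, from -0.14 to 0.30 for Ccnb2, from -0.00873 to 0.49 for Ube2c and from -0.10 to 0.12 for Racgap1, which was also 0.0274 with a term for Xist. The cause was not tested. No paired analysis was possible because the genotypes share no replicate numbers. Counts of the members lay far above the floor: the lowest, Ccnb2 in WT replicate 2, was 7.92 CPM against at most 0.0722 CPM for 3 counts. The precision is limited by 3 libraries per genotype.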
